A study of Rattus norvegicus with 12 samples.

Results

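Expression of 8 genes tied to the prolactin, thyrotropin and POMC cells of the pituitary was described here in rat pituitary and hypothalamus. The genes were Prl, Tshb, Pomc, Pou1f1, Neurod4, Drd2, Ghrhr and Rxrg, taken by platform gene symbol or current symbol by gene ID. Each had 1 probe, and together they made up 8 of the 13337 named genes on the Illumina RatRef-12 bead array, on which labelled RNA binds to gene-specific probes on beads. The animals were male Wistar rats on postnatal day 70, the offspring of dams dosed by mouth on gestation day 15 with TCDD, a dioxin that binds the aryl hydrocarbon receptor, in corn oil, or with vehicle. There were 4 groups of 3 arrays: pituitary TCDD, pituitary vehicle, hypothalamus TCDD and hypothalamus vehicle. The dose stands as 1 µg per kg in the series text and as 1 mg per kg in the sample protocols, so values below are tied to TCDD exposure and not to a dose. The labels do not say which arrays share a dam, a litter or an animal, or how the tissues were cut, so p-values measure only the spread between arrays. The sample titles carry short codes, of which 1 TCDD and 1 vehicle code recur in both tissues, and what a code marks is not stated.

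The anterior pituitary holds separate hormone cells. Lactotropes make prolactin (Prl), thyrotropes make thyrotropin, of which Tshb encodes the beta subunit, and corticotropes and melanotropes make pro-opiomelanocortin (Pomc), the precursor of ACTH, alpha-MSH and beta-endorphin. Pou1f1 (Pit-1) is the POU-domain factor on which lactotropes, somatotropes and thyrotropes depend, and Neurod4 is a bHLH factor of the somatotrope line. Drd2 is the receptor by which hypothalamic dopamine restrains prolactin and melanotrope output, Ghrhr is the somatotrope receptor for growth hormone releasing hormone, and Rxrg is a retinoid X receptor found in thyrotropes. Pomc is also made by neurons of the hypothalamic arcuate nucleus, and Tshb is also made in the pars tuberalis, the sleeve of pituitary around the stalk below the hypothalamus.

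RefSeq promoter windows (250 bases before to 50 after the annotated start, assembly GRCr8) were found for 7 of the 8 genes. Those of the 3 hormone genes are shown because the results turn on their pituitary and hypothalamus signals. The Prl window lies at chr17:38298168-38298467 on the minus strand, the Tshb window at chr2:192918005-192918304 on the minus strand, and the Pomc window at chr6:32659103-32659402 on the plus strand. Each is written 5′ to 3′ on the gene's strand, and capitals mark matches to the POU1F1 motif TATNCAT or to the TATAAA element.
Prl: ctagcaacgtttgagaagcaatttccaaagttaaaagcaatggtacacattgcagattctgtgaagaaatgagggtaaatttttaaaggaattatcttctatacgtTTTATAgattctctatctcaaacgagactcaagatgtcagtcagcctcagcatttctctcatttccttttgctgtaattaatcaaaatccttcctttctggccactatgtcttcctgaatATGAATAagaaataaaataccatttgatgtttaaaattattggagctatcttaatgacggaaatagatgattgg
Tshb: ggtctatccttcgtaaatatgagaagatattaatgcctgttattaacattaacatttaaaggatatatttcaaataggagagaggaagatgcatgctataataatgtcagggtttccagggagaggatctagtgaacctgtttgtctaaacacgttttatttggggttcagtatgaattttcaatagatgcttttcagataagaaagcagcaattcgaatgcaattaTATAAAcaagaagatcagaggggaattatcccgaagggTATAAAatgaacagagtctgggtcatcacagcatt
Pomc: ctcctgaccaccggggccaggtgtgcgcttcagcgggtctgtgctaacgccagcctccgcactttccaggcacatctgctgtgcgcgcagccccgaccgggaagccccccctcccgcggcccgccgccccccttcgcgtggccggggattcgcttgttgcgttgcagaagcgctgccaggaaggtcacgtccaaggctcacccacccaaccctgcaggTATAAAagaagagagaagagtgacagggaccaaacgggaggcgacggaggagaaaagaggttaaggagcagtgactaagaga
TATNCAT, searched on both strands, was found in Prl alone among the 7 genes with a window, on the reverse strand beginning 24 bases before the start. It occurred in 9.59% of the 27457 promoter windows searched. TATAAA was found in Prl, on the reverse strand, and in Tshb and Pomc on the gene's strand, and in 14.3% of the windows. TCACACC (a T-box element, for TBX19), TAATCC and TAAGCC (both for PITX factors) were found in none of the 7 genes, against 3.81%, 7.11% and 8.92% of the windows. Matches to different motifs did not overlap in the 3 windows shown, and a match is a string of letters and not a measured site.

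All 12 arrays carried 22523 probes. Of these, 9934 to 10371 were detected on a pituitary array and 10852 to 11438 on a hypothalamus array, detected meaning a detection p (the chance of such a signal from background beads) under 0.05. Signals are deposited intensities, not normalized between arrays, with medians of 108.1 to 123.6. Differences are on the log2 scale after background correction and quantile normalization, and the number of arrays limits their precision. In RNA from whole tissue, fewer cells of a type and less RNA per cell cannot be told apart.

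Prl (probe ILMN_1373356), Tshb (ILMN_1359649) and Pomc (ILMN_1371606) stood near the top of the signal range on every pituitary array in both exposure groups. Prl signals were 24986.7, 23793.2 and 23882.6 on the TCDD pituitary arrays, against 22678.7, 28237.2 and 24328.3 on the vehicle pituitary arrays. The TCDD arrays lay inside the range of the vehicle arrays. Tshb signals were 29948.2, 24432.7 and 30149.0 on the TCDD pituitary arrays, against 30636.5, 30236.1 and 28385.1 on the vehicle pituitary arrays. TCDD array 2 was the lowest of the 6, and the groups overlapped. Pomc signals were 27320.4, 26597.1 and 26335.2 on the TCDD pituitary arrays, against 26872.3, 27914.9 and 23814.1 on the vehicle pituitary arrays, again with overlap.

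These signals sat close to the brightest value each array recorded. Tshb reached 77.5% to 94.4% of the highest signal on the TCDD pituitary arrays and 89.9% to 96.7% on the vehicle pituitary arrays. It ranked between 3 and 24 of the 22523 probes. Prl reached 66.8% to 78.8% of the highest signal on the TCDD arrays and 66.5% to 84.2% on the vehicle arrays. Pomc reached 73.7% to 86.1% on the TCDD arrays and 78.8% to 83.3% on the vehicle arrays. From 70 to 101 probes per pituitary array passed 50% of the highest signal, so the hormone probes shared this end of the scale with few others. The files carry no saturation mark, so how far a higher hormone level could still have raised these signals was not tested. The other members lay far from that end: on the pituitary arrays Pou1f1 reached at most 8.46% of the highest signal, Rxrg 7.41%, Ghrhr 2.10%, Drd2 1.52% and Neurod4 1.34%.

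**Figure D1:**
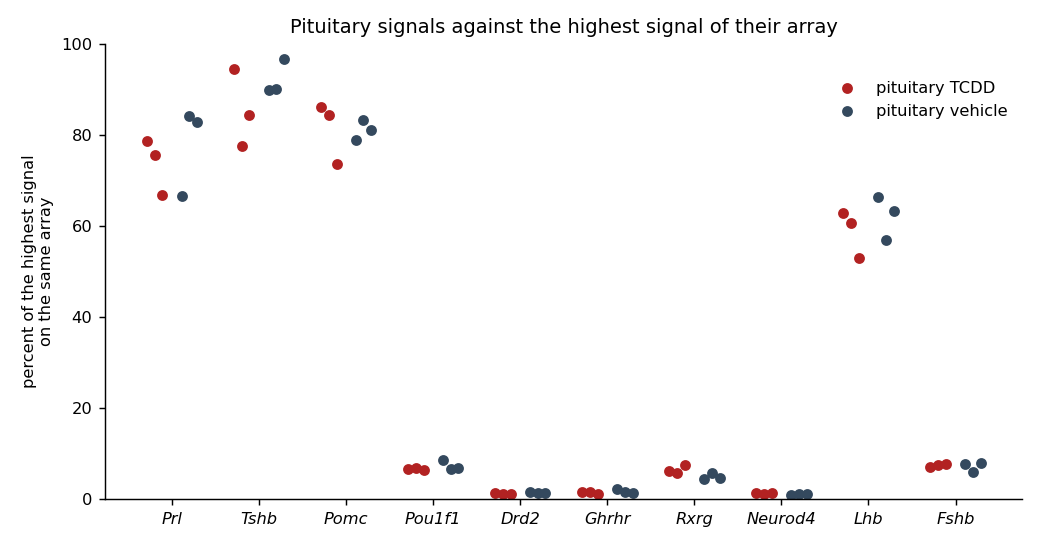
Signal of each gene on the pituitary arrays as a percent of the highest signal on that array, with TCDD and vehicle arrays as separate points. Tshb, Prl and Pomc sit between 66.5% and 96.7%, and the factors and receptors sit at or under 8.46%.

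The pituitary and hypothalamus differed in all 8 genes, and no gene's vehicle pituitary arrays overlapped its vehicle hypothalamus arrays, which held for 66.7% of the genes tested. In the vehicle groups 7 of 8 genes were higher in the pituitary and 1, Rxrg, was lower (limma, two-sided, Benjamini-Hochberg adjusted p under 0.05). These counts stand against a wide background, since 64.3% of the 11910 genes tested passed in this comparison, 35.7% higher and 28.6% lower. Pou1f1, Neurod4 and Ghrhr were detected on no vehicle hypothalamus array and passed the filter through the pituitary. Their direction was therefore fixed by the filter. Prl was 7.79 higher (SE 0.70, adjusted p = 7.58e-07), Tshb was 4.23 higher (95% interval 2.27 to 6.19, adjusted p = 0.0012) and Pomc was 2.77 higher (SE 0.26, adjusted p = 1.07e-06), in log2 units with 3 arrays each. The pituitary levels of these 3 genes stand near the top of the scale, and Prl was detected on 2 of the 3 vehicle hypothalamus arrays. Without background correction the Prl difference was 6.86.

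Pou1f1 (ILMN_1356790) had signals of 2119.7, 2148.0 and 2259.0 on the TCDD pituitary arrays and 2885.4, 2218.1 and 1986.6 on the vehicle pituitary arrays, and was detected on 0 of the 6 hypothalamus arrays. It was at least 21.2-fold higher in vehicle pituitary than in vehicle hypothalamus without background correction, and the same bound was 60.3-fold on background-corrected values. The bound sets the bright group's mean normalized value against the lowest normalized value that counted as detected on each dim array, or the dim probe's own where that was higher, and it moves with the background correction. Neurod4 (ILMN_1350249) was likewise detected on 0 of 6 hypothalamus arrays and was at least 3.04-fold higher in vehicle pituitary without background correction, with a bound of 6.87-fold after it. Ghrhr (ILMN_1368059) was detected on 1 hypothalamus array, TCDD array 3, and on no vehicle hypothalamus array. Ghrhr was at least 4.6-fold higher in vehicle pituitary without background correction, with a bound of 11.5-fold after it. No p-value is given for Pou1f1, Neurod4 and Ghrhr, since their vehicle hypothalamus values were all undetected.

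Drd2 and Rxrg were the receptors detected on all 12 arrays. Drd2 (ILMN_1360430) was 0.98 higher in vehicle pituitary (SE 0.10, adjusted p = 2.75e-06), a 1.98-fold difference. Rxrg (ILMN_1371942) ran the other way, with 1458.5, 1945.8 and 1329.2 on the vehicle pituitary arrays against 2283.5, 2617.6 and 2165.0 on the vehicle hypothalamus arrays. No vehicle pituitary array reached the lowest vehicle hypothalamus array. The log2 difference was -0.49 (95% interval -0.86 to -0.12, adjusted p = 0.0242), 1.40-fold lower in the pituitary. That call was lost without vehicle pituitary array 1 (-0.31, adjusted p = 0.115) and without vehicle hypothalamus array 2 (-0.44, adjusted p = 0.0727).

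**Figure D2:**
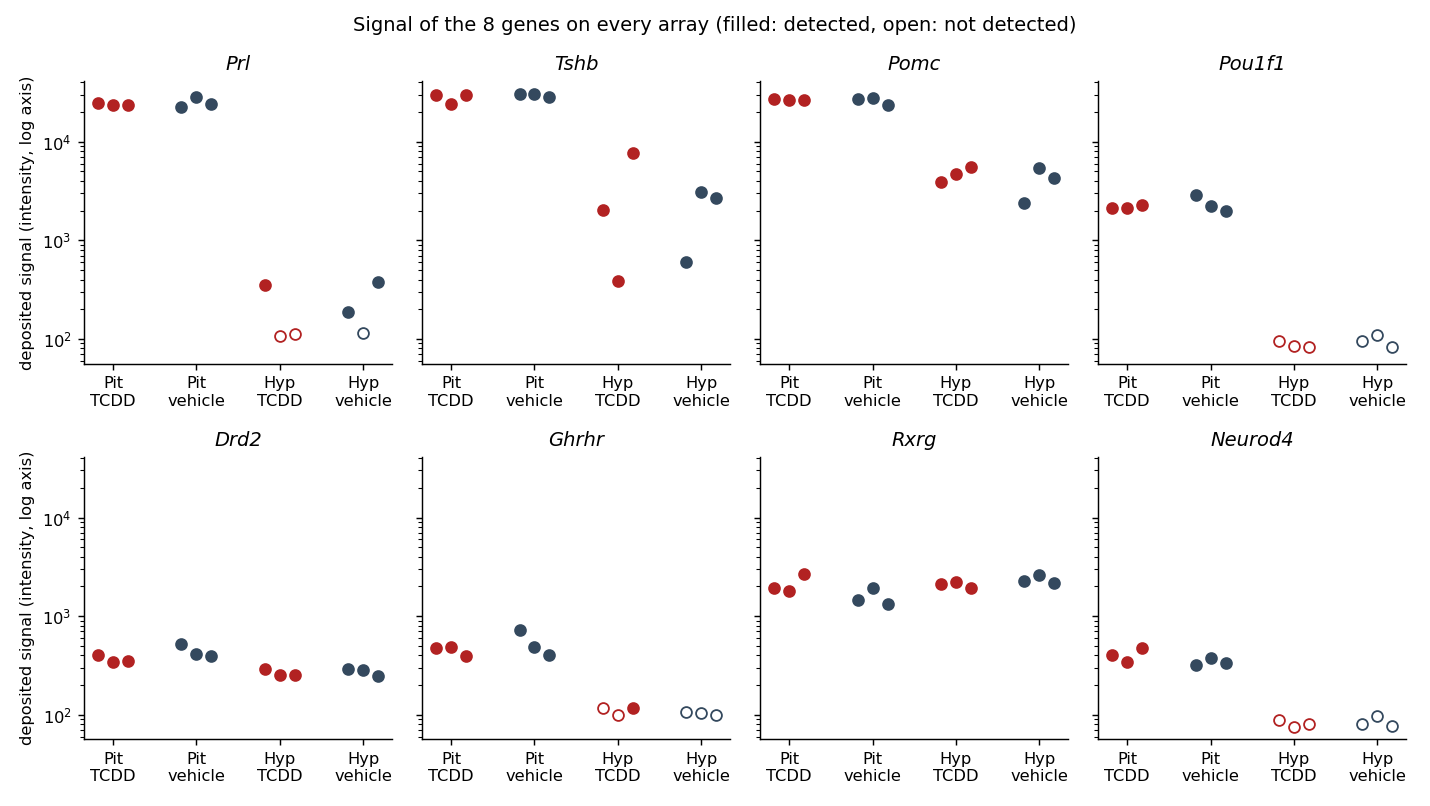
Deposited signal of each of the 8 genes on every array, on a log axis, by group. Prl, Tshb and Pomc are high on all 6 pituitary arrays, Tshb and Prl scatter widely on the hypothalamus arrays, and Rxrg is the gene whose vehicle hypothalamus signals stand above those of vehicle pituitary.

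Gene lists of these cells, members included, were counted in the same comparison. In the corticotrope and melanotrope list, 5 of 5 tested genes passed and were higher in vehicle pituitary, Pomc among them. Tbx19, the T-box factor of Pomc cells, was at least 1.57-fold higher without background correction. Pcsk2, a convertase that processes POMC, was higher by 1.65 in log2 units. Of 12 tested pituitary lineage factors 8 were higher and 1 lower. Pou1f1 and Neurod4, which are among them, also entered through the pituitary arrays alone. Pitx1, a factor of the whole anterior lobe, was 5.14 higher. Of 4 tested lactotrope genes 3 were higher, and these were the members Prl, Drd2 and Pou1f1. The other, galanin (Gal), a peptide of lactotropes that hypothalamic neurons also make, was 1.84 lower by limma (log2 difference -1.84, adjusted p = 0.000211). Th, which makes the dopamine that acts on Drd2, was detected on none of the 3 vehicle pituitary arrays and was at least 8.94-fold lower there than in vehicle hypothalamus without background correction, with a bound of 22.9-fold after it.

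In the hypothalamus, Tshb varied more from array to array than any other of the 11095 genes tested there. Its signals were 2052.5, 388.5 and 7642.7 on the TCDD hypothalamus arrays, against 602.2, 3120.6 and 2664.7 on the vehicle hypothalamus arrays. TCDD array 3 was the highest and TCDD array 2 the lowest, 19.7-fold apart, so the widest gap lay inside 1 group. The within-group SD of Tshb was 1.91 in log2 units, rank 1, against a median of 0.16 over the genes tested. It also ranked 1 without background correction, with median scaling and on the authors' table. In the pituitary its SD was 0.11, against a median of 0.14 over 10119 genes. Tshb stood near the top of the scale there, and whether that narrows its spread was not tested.

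Prl was the next most scattered hormone gene in the hypothalamus. Its signals were 351.7, 106.2 and 113.1 on the TCDD hypothalamus arrays and 187.5, 115.0 and 377.5 on the vehicle hypothalamus arrays. It was detected on TCDD array 1 and on vehicle arrays 1 and 3, and not on the other three. Its SD was 1.56, rank 9 of 11095, with part of that spread below the detection limit. Without background correction its SD was 0.90 (rank 25), and it was 0.63 (rank 37) on the authors' table. Pomc signals were 3899.3, 4744.0 and 5535.6 on the TCDD hypothalamus arrays and 2421.5, 5472.1 and 4314.6 on the vehicle hypothalamus arrays, detected on 6 of 6. Vehicle array 1 was the lowest, and the SD was 0.51, rank 265. Drd2 and Rxrg were steadier there, with SDs of 0.08 (rank 10101) and 0.13 (rank 7507).

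Set against the vehicle pituitary, Tshb signal in the hypothalamus spanned a wide range while Pomc stayed within a narrower one. After background correction, Tshb stood at 6.58%, 0.995% and 25.5% of its vehicle pituitary mean on TCDD hypothalamus arrays 1, 2 and 3, and at 1.71%, 10.2% and 8.68% on vehicle arrays 1, 2 and 3. Pomc stood at 14.6%, 17.8% and 20.9% on the TCDD arrays and at 8.91%, 20.6% and 16.2% on the vehicle arrays. Prl stood at 1.01% on TCDD array 1 and at 0.365% and 1.15% on vehicle arrays 1 and 3, and had no measured level on the other three, where it was not detected. The 3 genes did not share an order: Tshb was highest on TCDD array 3, where Prl was not detected, and Prl was highest on vehicle array 3. Whether these percentages are linear in RNA, with pituitary signals near the top of the scale, was not tested.

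**Figure D3:**
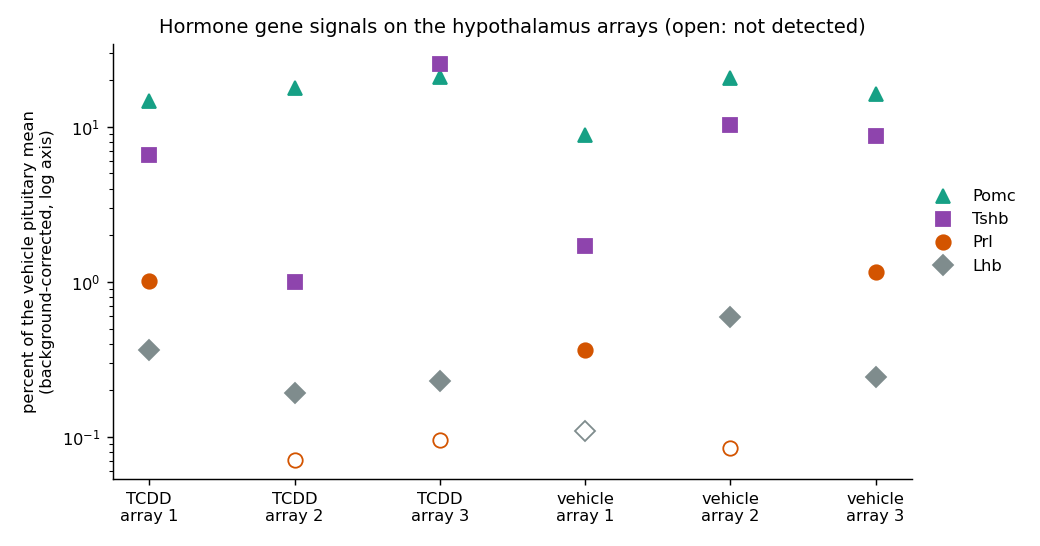
Signal of Tshb, Prl, Pomc and Lhb on each hypothalamus array as a percent of the mean over the vehicle pituitary arrays, on a log axis, with open points where the probe was not detected. Tshb runs from 0.995% to 25.5%, Prl from 0.365% to 1.15% where detected, and Pomc from 8.91% to 20.9%, and the genes are not ordered alike across arrays.

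Other pituitary hormone genes were also measured on the hypothalamus arrays. Lhb, the luteinizing hormone beta subunit, had hypothalamus signals of 173.9, 131.7 and 137.4 on the TCDD arrays and 114.1, 217.1 and 139.4 on the vehicle arrays, and was detected on 5 of 6. It was highest on vehicle array 2, where Prl was not detected and Tshb was 3120.6. Fshb, the follicle stimulating hormone beta subunit, and Cga, the subunit that thyrotropin, LH and FSH share, were detected on 0 of 6 hypothalamus arrays. Cga was detected on 3 of 6 pituitary arrays with signals of 117.2 to 135.7, so its probe says little in either tissue. Of 17 pituitary cell type genes with a probe, the 8 members left out, 9 were detected on no TCDD and 9 on no vehicle hypothalamus array. The summed background-corrected signal of the 17, not normalized between arrays, was 2146 to 2512 in TCDD and 1853 to 2620 in vehicle hypothalamus. Much of that sum came from Gal and Pcsk2, with deposited hypothalamus signals of 642.2 to 1180.5 and 417.3 to 684.9. The 4 gonadotrope genes in it summed to 72.02 to 110.4 in TCDD and 63.02 to 159.9 in vehicle hypothalamus. The sum therefore says little of how much pituitary tissue an array held. The part of pituitary tissue in the spread of Tshb and Prl was not tested.

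The genes whose hypothalamus pattern lay nearest to each hormone gene were different ones. Likeness was the root mean square difference of centred log2 values over the 6 hypothalamus arrays, smaller meaning more alike. Tshb lay nearest to Nmu at 0.602, Pitx1 at 0.751 and Fbln5 at 0.966, against its own range of 4.64. Nmu (neuromedin U, a peptide of the pars tuberalis in the rat) had signals of 742.7, 214.2 and 1150.9 on the TCDD arrays and 356.9, 1087.1 and 1080.1 on the vehicle arrays. Like Tshb it was highest on TCDD array 3 and lowest on TCDD array 2. Its centred value on TCDD array 3 was 1.01, close to 1.00 on vehicle array 3, where Tshb had 2.26 and 0.789. Pitx1 had signals of 303.8, 114.3 and 351.5 on the TCDD arrays and 184.0, 444.2 and 344.4 on the vehicle arrays, lowest on TCDD array 2 but highest on vehicle array 2. Of 5 pars tuberalis markers with a probe, Tshb and Nmu were detected on the hypothalamus arrays and Cga, Mtnr1a and Eya3 on 0 of 6. Mtnr1a and Eya3 were detected on 0 of 6 pituitary arrays too. No array here therefore shows whether these probes report their genes, and their absence in the hypothalamus cannot be read either way. The part of the pars tuberalis in the Tshb values was not tested.

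Prl lay nearest to Slc47a1 at 0.668, Wnt6 at 0.732 and Ttr at 0.750, against its own range of 3.25. Prl was detected on 3 of the 6 arrays, Slc47a1 and Ttr on 5 each and Wnt6 on 6. Part of this range and likeness therefore lies below the detection limit. Ttr, the thyroid hormone carrier made in choroid plexus, had signals of 223.0, 154.0 and 109.4 on the TCDD arrays and 175.2, 134.4 and 233.5 on the vehicle arrays. Like Prl it was highest on vehicle array 3 and next highest on TCDD array 1. Pomc lay nearest to Sox14 at 0.0755, Mc3r at 0.105 and Pnma3 at 0.128, against its own range of 1.27. Mc3r, a receptor for peptides cut from POMC, had signals of 169.1, 172.7 and 185.3 on the TCDD arrays and 135.3, 196.0 and 155.9 on the vehicle arrays. Of 8 other tested genes of the melanocortin pathway and arcuate peptides, 5 were lowest on vehicle array 1, the array with the lowest Pomc, against 26.4% of all genes tested. Agrp, the peptide that opposes melanocortin signalling, had 474.6, 515.2 and 591.5 on the TCDD hypothalamus arrays and 260.0, 488.9 and 518.3 on the vehicle hypothalamus arrays, with vehicle array 1 below the other five. These patterns rest on 6 arrays and on genes picked for likeness, and are a description.

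**Figure D4:**
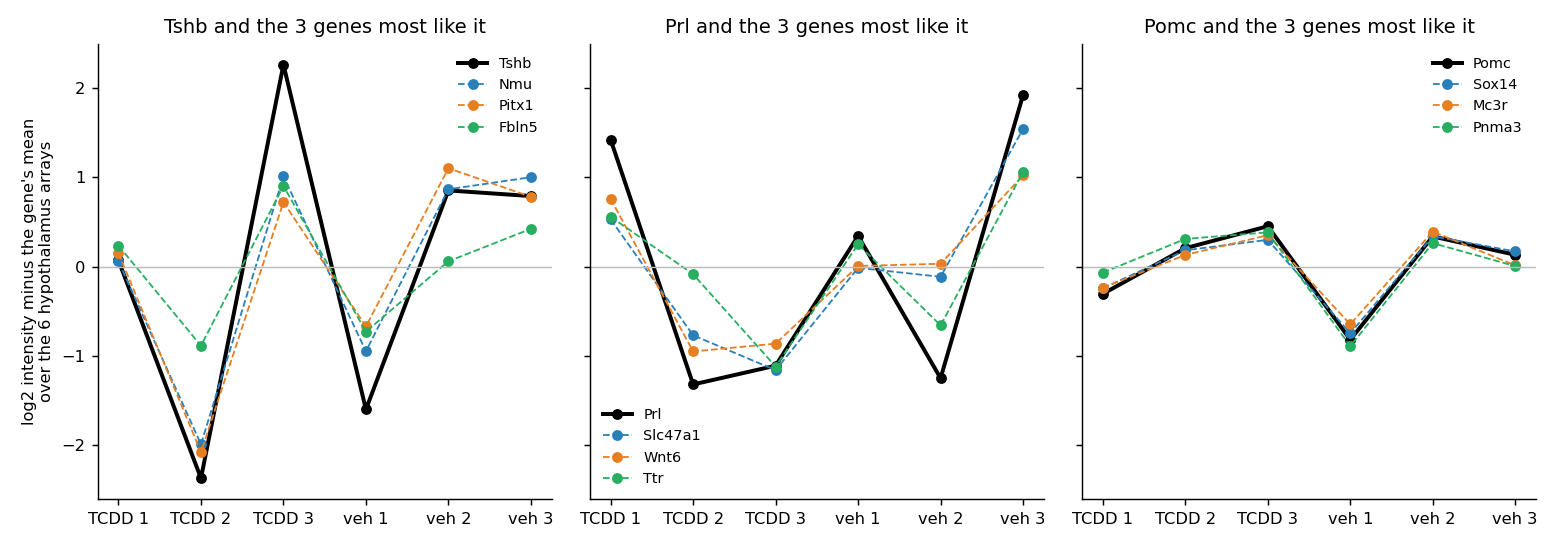
Centred log2 values of Tshb, Prl and Pomc and of the 3 genes nearest to each, over the 6 hypothalamus arrays. Tshb and Nmu share a low TCDD array 2, and Pomc, Sox14 and Mc3r share a low vehicle array 1. Tshb stands apart on TCDD array 3, where Nmu is about level with vehicle array 3.

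TCDD exposure of the dam moved none of the 8 genes past the threshold in the pituitary. By limma with Benjamini-Hochberg adjustment 0 of 8 were called, and the share called over all 10119 genes tested was 0%. At an unadjusted p under 0.05 there were 2 of 8, Drd2 and Rxrg, against 6.05% of all genes. Prl averaged 14.56 ± 0.03 in TCDD and 14.57 ± 0.28 in vehicle pituitaries (log2, SD, n = 3 each), a difference of -0.01 with a 95% interval of -0.32 to 0.31 (limma adjusted p = 0.997). Tshb differed by -0.10 (interval -0.33 to 0.13, limma adjusted p = 0.928) and Pomc by 0.03 (interval -0.17 to 0.23, limma adjusted p = 0.979). Whether signals near the top of the scale compress such differences was not tested. Pou1f1 differed by -0.11 (interval -0.31 to 0.09, limma adjusted p = 0.903).

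Drd2 in the pituitary had signals of 399.4, 345.9 and 352.4 on the TCDD arrays and 519.3, 409.6 and 392.0 on the vehicle arrays. TCDD array 1 lay above vehicle array 3 in the deposited signal, but after normalization all 3 TCDD arrays were below all 3 vehicle arrays, at 8.15 ± 0.14 against 8.45 ± 0.11 (log2, SD). Of the 8 genes 1 separated in this way, against 11.1% of all genes tested. The difference was -0.30 (SE 0.11, 95% interval -0.54 to -0.05, limma unadjusted p = 0.0242, adjusted p = 0.77). Drd2 also separated in the hypothalamus after normalization, at 7.49 ± 0.0049 in TCDD and 7.67 ± 0.11 in vehicle, although its deposited signals of 291.5, 253.7 and 253.8 on the TCDD arrays overlapped the 293.8, 283.3 and 248.1 on the vehicle arrays. The difference there was -0.18 (interval -0.42 to 0.06, limma adjusted p = 0.883).

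The Rxrg differences had opposite signs in the 2 tissues, and neither passed the test. In the pituitary its signals were 1922.0, 1788.6 and 2648.7 on the TCDD arrays and 1458.5, 1945.8 and 1329.2 on the vehicle arrays, with vehicle array 2 above TCDD arrays 1 and 2. The difference was 0.46 (SE 0.19, interval 0.03 to 0.90, limma unadjusted p = 0.0382, adjusted p = 0.817). In the hypothalamus the signals were 2114.1, 2236.9 and 1944.9 on the TCDD arrays and 2283.5, 2617.6 and 2165.0 on the vehicle arrays, a difference of -0.23 (interval -0.51 to 0.04, limma adjusted p = 0.883). The pituitary effect minus the hypothalamus effect was 0.70 (SE 0.24, interval 0.18 to 1.23, limma unadjusted p = 0.0129, adjusted p = 0.719). That was 1 of 8 genes at an unadjusted p under 0.05, against 6.19% of the 11910 genes tested, and 0 of 8 after adjustment, against 0%. The other 7 genes had adjusted p of 0.824 to 0.989 for this difference by limma. Among them Pou1f1 and Neurod4 were detected on 0 of 6 hypothalamus arrays and Ghrhr on 1 of 6. They passed the filter through the pituitary arrays, so whether their TCDD effect differs between tissues was not measured.

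Neurod4 had pituitary signals of 399.0, 341.0 and 478.6 on the TCDD arrays and 320.7, 371.9 and 336.8 on the vehicle arrays, overlapping at the low end. The difference was 0.33 (interval -0.09 to 0.75, limma adjusted p = 0.861). Ghrhr had 474.6, 483.0 and 394.3 on the TCDD arrays and 717.0, 485.0 and 407.3 on the vehicle arrays, where vehicle array 1 stood apart. The difference was -0.22 (interval -0.60 to 0.16, limma adjusted p = 0.9).

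**Figure D5:**
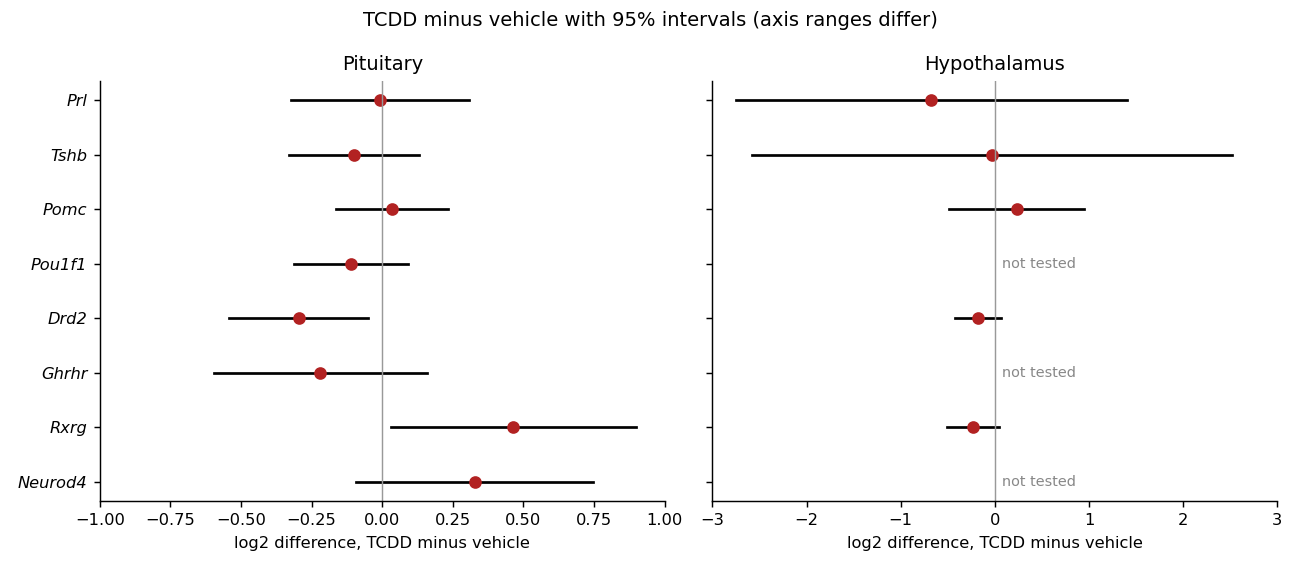
Difference of TCDD minus vehicle for each gene in pituitary and hypothalamus, in log2 units, with 95% intervals. The Drd2 and Rxrg intervals in the pituitary exclude 0 without adjustment, and the hypothalamus intervals of Tshb and Prl span several units.

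In the hypothalamus 5 of the 8 genes were detected on enough arrays (3 of 6) to be tested, and 0 of 5 were called, against 0.00901% of the 11095 genes tested. At an unadjusted p under 0.05 there were also 0 of 5, against 5.36%. Non-overlap was found for 1 of 5, Drd2, against 10.9%. The Tshb difference was -0.03 with an interval of -2.58 to 2.52 (limma adjusted p = 0.997), so changes of several fold in either direction were within its error. Prl, detected on 1 of 3 TCDD and 2 of 3 vehicle arrays, differed by -0.67 (interval -2.75 to 1.40, limma adjusted p = 0.928). Pomc differed by 0.23 (interval -0.48 to 0.95, limma adjusted p = 0.926). Pou1f1, Neurod4 and Ghrhr were not tested there.

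The lists around these genes held no call for TCDD either, at 0 in each list and tissue. Several of these lists also hold members, so their counts and medians repeat member values given above. In the pituitary 1 of 4 lactotrope genes was higher and 3 were lower (median -0.06). The 3 lower ones were the members Prl, Drd2 and Pou1f1, and the higher one was Gal (difference 0.38, limma adjusted p = 0.903). Of 6 thyrotrope genes, Tshb, Pou1f1 and Rxrg included, 3 were higher (median -0.05). Of 7 somatotrope genes 3 were higher and 4 lower (median -0.11), against a median near 0 over all genes tested. The smallest p in the somatotrope list was that of Sstr2, a somatostatin receptor, at 7.74 ± 0.28 in TCDD and 8.69 ± 0.12 in vehicle (difference -0.95, limma unadjusted p = 0.00016, adjusted p = 0.324). In the corticotrope and melanotrope list 3 of 5 were higher (median 0.03, the value of Pomc itself). Pcsk2 was at 9.50 ± 0.35 in TCDD and 9.99 ± 0.09 in vehicle (difference -0.49, limma unadjusted p = 0.0175, adjusted p = 0.77). Of 10 retinoid X receptors and partners 6 were higher (median 0.02), with Rara, a retinoic acid receptor, differing by 0.30 (limma adjusted p = 0.822).

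In the hypothalamus 3 of 8 dopamine synthesis and transport genes were higher and 5 were lower (median -0.10), with Th, the rate-limiting enzyme, at a difference of -0.42 (limma adjusted p = 0.883). Of 5 tested genes of the prolactin receptor pathway 3 were higher (median 0.16), with Stat3 differing by 0.25 and Stat5a by 0.26 (limma adjusted p = 0.883 for both). Of 9 melanocortin genes, Pomc included, 6 were higher (median 0.16). Mc4r, the receptor through which POMC peptides curb feeding, differed by -0.30 (limma adjusted p = 0.883).

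Astrocyte markers summed to more on the TCDD pituitary arrays than on the vehicle pituitary arrays, through 1 gene, Slc1a3. The list sums given here are not normalized between arrays. Their background-corrected signal over 3 markers was 1417 to 2008 in TCDD and 1078 to 1267 in vehicle pituitaries. Slc1a3 differed by 0.67 with overlapping groups (limma adjusted p = 0.77), Gfap differed by -0.09 (limma adjusted p = 0.976), and Aqp4 was detected on 0 of 6 pituitary arrays, so the higher sum came from Slc1a3. The neural lobe list summed to 873 to 1087 in TCDD and 720.9 to 899.5 in vehicle pituitaries, with overlap. The oligodendrocyte list summed to 51.68 to 74.16 in TCDD and 47.03 to 61.98 in vehicle pituitaries, with overlap and near background. Its Mog probe was detected on 0 of 6 pituitary arrays and its Mbp probe on 4 of 6. The neuron list overlapped too, at 5359 to 6380 in TCDD and 3949 to 6679 in vehicle pituitaries. Of its 5 genes 2 were higher and 3 lower, and Nefl differed by 0.77 without overlap (limma unadjusted p = 0.00213, adjusted p = 0.552). The part of the cells of these lists in the Drd2, Rxrg and Neurod4 values was not tested.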

How the data were processed

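Each of 12 Illumina RatRef-12 arrays held cRNA made from 250 ng of total RNA, 3 arrays per group by the labels. The authors deposited a signal intensity per probe and array with no normalization between arrays, beside which the deposited table gives each detection p-value. A second deposited table of intensity values, normalized by the authors within each tissue by an unstated method, served as an alternative only. Scanner software, earlier background steps, slides and scan times are not given in the sources.

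Of 22523 probes 13793 had 1 gene symbol and 8730 had none here. Symbols were updated by gene ID through RefSeq (13752 matched). With R 4.3.3 and limma 3.58.1, signals were background-corrected from the detection p-values (nec, offset 16), quantile normalized and taken to log2. TCDD and vehicle were compared inside 1 tissue at a time, and the tissue comparison and the difference of effects used 12 arrays together. A gene was its probe of highest mean, tested if detected on at least 3 arrays (lmFit and eBayes, two-sided, no block, Benjamini-Hochberg over all genes tested). The code was tested on simulated data.

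The members, lists and tests were chosen with earlier results of these data known. Named genes are the members, other pituitary hormone genes, the 3 nearest Prl, Tshb and Pomc in the hypothalamus, the 2 nearest each member over 12 arrays, and genes among the 2 of smallest p in a list. Gal, Agrp, Mtnr1a, Eya3 and Aqp4, and Pcsk2 and Pitx1 between tissues, were chosen after their values were seen, as was the TATAAA motif. Alternatives were the background correction, scaling, filter, moderation, probe choice, replicate block, authors' table, joint normalization and leaving out each array. Those for the rank of the spread and the blocks by sample title were chosen after seeing the data.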

Additional observations from a re-analysis of the deposited data

How the results depend on the processing

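No alternative gave a member a call for TCDD. Leave-one-out settings aside, 278 values were unchanged in direction and side of the threshold or moved little, 18 moved and 6 reversed. The count of genes called in the pituitary, 0 as reported, was 2 without background correction, 2 on the authors' table, 1 with detection on all arrays and 3 with a trended robust prior. In the hypothalamus, 1 as reported, it was 2 without background correction, 2 on the authors' table, 2 without the filter, 2 with detection on all arrays, 3 with the trended robust prior and 0 with 12 arrays together. The Tshb difference in the hypothalamus, -0.03, turned to 0.013 without background correction, 0.024 with median scaling, 0.051 on the authors' table and 0.0037 with 12 arrays together. On the authors' table the hypothalamus means in percent of vehicle pituitary were 1.02 for Prl and 1.04 for Lhb, against 0.462 and 0.289, undetected arrays included. That table was normalized inside each tissue, so these percentages compare 2 scales. It also keeps a background, with Prl at 163.92 on TCDD hypothalamus array 2, where Prl was not detected. In the hypothalamus the rank of the Prl spread, 9 as reported, was 25 without background correction and 37 on the authors' table, and that of Pomc, 265, was 117 and 69, while Tshb stayed at 1. The cause was not tested.

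Leaving out 1 array at a time gave pituitary counts of 0 to 3, hypothalamus counts of 1 to 3 and counts of 0 to 1 for the difference between tissues. In the pituitary Prl ranged from -0.18 to 0.087 and Pomc from -0.013 to 0.072, and in the hypothalamus Tshb ranged from -1.17 to 1.15 and Pomc from -0.12 to 0.46. For the difference between tissues the ranges were -0.19 to 1.40 for Prl, -1.31 to 1.04 for Tshb, -0.42 to 0.17 for Pomc and -0.070 to 0.11 for Pou1f1. The Pou1f1 range rests on undetected hypothalamus values. Rxrg in vehicle pituitary against vehicle hypothalamus ranged from -0.66 to -0.31.

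Arrays with the same replicate number in their descriptions were not taken as paired, since the labels do not say that the number marks a shared animal, dam or litter. The deviations of such arrays correlated at 0.07 to 0.186 in the pituitary and 0.0957 to 0.259 in the hypothalamus. The replicate block gave 0 calls in the pituitary, 1 in the hypothalamus and 0 for the difference between tissues, and changed no member's call. Every pituitary array, and 3 of 6 hypothalamus arrays, correlated best with its own number. The sample titles carry other numbers. Arrays of the same title number in 1 tissue correlated at 0.0771 to 0.281, and those of the same title code in both tissues at 0.109 (TCDD) and -0.229 (vehicle). With the title number as a block, chosen after seeing the data, 4 genes were called in the pituitary and 2 in the hypothalamus, the Pomc difference in the pituitary was -0.0085 and the Tshb difference in the hypothalamus was 0.32. With the title code as a random block 0 genes were called for the difference between tissues, and neither changed a member's call. With 3 arrays per group, signals near background (Prl, Lhb, Ghrhr and Cga in the hypothalamus) and near the top of the scale limit what could be seen.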

Other observations

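Over all 12 arrays, where the tissue difference dominates, the genes nearest in pattern to each member were also named by the root mean square difference of centred log2 values among 11910 genes. Pou1f1 lay nearest to Fshb (0.189) and Dapl1 (0.27), Ghrhr to Rab25 (0.197) and Crb3 (0.201), and Neurod4 to Cryba2 (0.173) and Esm1 (0.178). Pomc lay nearest to Spint2 (0.207) and Cldn9 (0.221), and Prl to Lhb (1.02) and Fshb (1.20). Tshb lay nearest to Pitx1 (0.877) and Cldn3 (0.913). Drd2 lay nearest to Appbp2 (0.0931) and Jade1 (0.104), and Rxrg to Pax4 (0.157) and Hipk2 (0.168). These are descriptions over arrays that share a tissue and carry no test.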
